A study of Mus musculus with 13 samples.

Results

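Secretory epithelia move salt, calcium, phosphate and bicarbonate with a small set of membrane proteins and enzymes, and 7 genes of that kind were followed through mammary tumors and mammary glands of MMTV-HER2/Neu mice. They were Slc12a2, Atp1b1, Atp2b2, Atp2c2, Slc34a2, Car2 and Car6, which are 7 of the 24421 genes in the count table. The genes were chosen from measured values, namely their levels in these same tumors and glands, with the difference between primary untreated tumors and glands among them. For that reason their levels in tumors and glands are given as a description, without a test.

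RNA was sequenced from 11 mammary tumors and from 2 mammary glands without tumor, all of female mice of the 202Mul/J line FVB/N-TgN (MMTV-HER2/neu). Mice of this line carry rat HER2/Neu under the promoter of mouse mammary tumor virus, which is active in breast epithelium. The genotype field of the labels reads wild type, so the labels do not settle whether the gland donors carried the transgene. Primary untreated tumors (n = 3) and glands (n = 2) came from mice on plain water. Primary STV tumors (n = 3) arose in mice given 1 mg/mL stavudine (STV), an inhibitor of reverse transcriptase, in their water. Recurrent DMAG tumors (n = 3) regrew in mice injected with 17-DMAG at 20 mg/kg, and by the study's methods the injections went on until the regrown tumors were taken. 17-DMAG inhibits the chaperone Hsp90, on which the HER2/Neu protein depends. Recurrent DMAG+STV tumors (n = 2) regrew under 17-DMAG at 20 mg/kg in mice kept on water with 1 mg/mL STV. Regrowth and the presence of 17-DMAG therefore cannot be told apart in comparisons of recurrent with primary tumors. For recurrent DMAG+STV tumors, the study began STV either before tumors arose or with 17-DMAG, and the sample titles do not say which. Mice entered the study as young adults; their age at sampling and the reproductive state of the gland donors were not given in the sources used here. Whether each tumor came from its own mouse was not stated in the labels, so p-values measure the spread between these samples.

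Sodium leaves an epithelial cell through the Na,K-ATPase, whose beta 1 subunit is the product of Atp1b1, and the sodium gradient that results drives the uptake of chloride and phosphate. Slc12a2 encodes NKCC1, which carries sodium, potassium and chloride into the cell together. During lactation the mammary cell exports calcium into milk: Atp2b2 encodes PMCA2, the calcium pump of the apical membrane, and Atp2c2 encodes SPCA2, a calcium and manganese pump of the secretory pathway. Slc34a2 encodes NaPi-IIb, an apical sodium-phosphate cotransporter. Carbonic anhydrases interconvert carbon dioxide and bicarbonate; Car2 is a cytosolic enzyme, and Car6 is secreted and is known from saliva and milk.

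The stretches just before the transcription starts of 4 of the genes are shown to give the sequence context of genes whose levels differed between the glands, as described further on. They are the members for which a window was read. Slc34a2 and Atp2b2 stood highest in gland 2, where Atp1b1 and Car6 stood lowest. Each sequence is the 250 bases before a RefSeq transcription start on GRCm38.p6, written 5′ to 3′ on the strand of the gene. For Atp2b2, which has several starts in RefSeq, the most upstream one is shown. The Slc34a2 window ends at 53049352, inside the gene model given further on, which begins at 53038081. Which start each gene used in these samples was not tested. Capitals mark TATATA, which reads the same on both strands, and CCAAT or its reverse complement. These 2 motifs were picked after the sequences were seen.
Slc34a2, chr5:53049103-53049352, + strand: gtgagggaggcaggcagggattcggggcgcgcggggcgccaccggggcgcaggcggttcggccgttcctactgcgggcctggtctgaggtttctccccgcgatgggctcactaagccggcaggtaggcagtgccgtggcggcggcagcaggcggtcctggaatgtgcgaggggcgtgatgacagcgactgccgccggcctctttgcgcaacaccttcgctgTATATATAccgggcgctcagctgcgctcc
Atp2b2, chr6:114042081-114042330, - strand: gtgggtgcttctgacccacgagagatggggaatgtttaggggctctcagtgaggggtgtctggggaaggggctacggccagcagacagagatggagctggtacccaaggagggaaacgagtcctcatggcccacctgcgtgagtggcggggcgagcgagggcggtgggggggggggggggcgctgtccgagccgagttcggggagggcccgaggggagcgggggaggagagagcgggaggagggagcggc
Atp1b1, chr1:164458356-164458605, - strand: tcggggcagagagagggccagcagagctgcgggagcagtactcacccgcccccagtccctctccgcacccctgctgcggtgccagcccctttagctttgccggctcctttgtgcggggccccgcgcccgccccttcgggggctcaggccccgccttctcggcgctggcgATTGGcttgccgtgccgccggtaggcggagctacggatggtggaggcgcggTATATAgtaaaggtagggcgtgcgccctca
Car6, chr4:150201136-150201385, - strand: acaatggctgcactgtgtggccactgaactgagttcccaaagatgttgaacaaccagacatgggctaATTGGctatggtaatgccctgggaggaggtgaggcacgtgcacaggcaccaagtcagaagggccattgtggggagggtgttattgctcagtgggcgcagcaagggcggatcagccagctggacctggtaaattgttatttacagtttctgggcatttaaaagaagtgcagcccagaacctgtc
The 4 genes have 6 windows in all because Atp2b2 has 3; the windows of Slc12a2, Atp2c2 and Car2 were not used here. TATATA occurred in the windows of Slc34a2, where overlapping copies began 29 and 27 bases before the start, and of Atp1b1, where it began 30 bases before the start. Of all 32851 mouse promoter windows of this length, 5.25% held it. CCAAT or its reverse complement occurred in the windows of Atp1b1, 81 bases before the start, and Car6, 183 bases before it, against 33.8% of all windows. The STAT-type motif TTCNNNGAA, which is its own reverse complement, was in 0 of the 6 windows and in 7.02% of all windows. TATAAA, searched on both strands, was in 0 of the 6 and in 12.4% of all. A match describes letters only, and a missing match says nothing about a factor.

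Library totals ran from 39921388 to 56887708 counts. Levels are given as CPM, the count of a gene relative to the size of its library, which was first scaled by the trimmed mean of M-values (TMM). The scaling factor was 0.493 in gland 2 and 0.999 to 1.12 in the other libraries. A count of 3, taken as the floor, equals 0.0587 to 0.0695 CPM, and 0.107 CPM in gland 2. The glands differed from each other. The summed CPM of 8 milk protein genes was 28058 in gland 1, 764699 in gland 2 and 4603 to 23365 in tumors. The 7 adipocyte markers summed to 949 and 749 CPM in the glands and 5.40 to 115 CPM in tumors, and the 8 leukocyte markers to 460 and 108 CPM in the glands and 68.9 to 198 CPM in tumors. Luminal keratins and junction genes, 7 in all, were detected in every library, with sums of 1694 and 1407 CPM in the glands and 1359 to 2793 CPM in tumors. Skeletal muscle markers (7 genes) summed to 870 CPM in primary untreated tumor 1, 431 CPM in recurrent DMAG tumor 3, 1408 CPM in recurrent DMAG+STV tumor 2, 146 CPM in primary STV tumor 2, 1624 CPM in gland 2 and at most 13.04 CPM elsewhere. In RNA from whole tissue, fewer cells of a type and less RNA per cell cannot be told apart.

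Slc12a2, the chloride-loading cotransporter, had the highest level of the 7 genes per kilobase of exon in the median over tumors and in 8 of the 11; Car6 was above it in primary untreated tumor 3 and recurrent DMAG+STV tumor 2, and Car2 in recurrent DMAG tumor 1. It stood at 1441, 2207 and 3847 CPM in primary untreated tumors 1 to 3 and at 1540, 1491 and 1353 CPM in primary STV tumors. Recurrent DMAG tumors had 686.9, 952 and 1136 CPM, recurrent DMAG+STV tumors 1217 and 807 CPM, and the glands 686.3 and 274 CPM. All 11 tumors lay above both glands, though recurrent DMAG tumor 1 did so by less than 1 CPM; scaled to the library total alone it stood at 727 CPM, below gland 1 at 772 CPM. The 6 primary tumors all lay above the 5 recurrent ones. The median tumor had 1.97 times the level of gland 1 and 4.94 times that of gland 2.

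Atp1b1, the beta subunit of the sodium pump, varied most in the untreated primary group. Its CPM was 102, 509 and 223 in primary untreated tumors, 84.0, 60.0 and 110 in primary STV tumors, 177, 77.6 and 76.1 in recurrent DMAG tumors and 106 and 46.8 in recurrent DMAG+STV tumors. The glands had 47.8 and 16.2 CPM. Of the 11 tumors, 10 were above gland 1 and all were above gland 2; recurrent DMAG+STV tumor 2 was just under gland 1. The highest value belonged to primary untreated tumor 2, which also had the highest sum of 9 salivary gland markers, 118 CPM, against 2.74 to 37.0 CPM in the other tumors and 19.0 and 14.1 CPM in the glands. The part of salivary tissue in that value was not tested.

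Atp2b2, the apical calcium pump, was low in every tumor. It was at 1.67, 0.571 and 0.521 CPM in primary untreated tumors, 1.36, 1.96 and 1.35 CPM in primary STV tumors, 0.973, 0.380 and 0.839 CPM in recurrent DMAG tumors and 1.35 and 0.245 CPM in recurrent DMAG+STV tumors. These levels rest on 12 to 90 counts. Gland 1 had 4.06 CPM and gland 2 had 1662 CPM. Every tumor was below both glands, the median tumor 4.18-fold below gland 1 and 1709-fold below gland 2.

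Atp2c2, the calcium pump of the secretory pathway, showed a smaller gap, and only against gland 2. Primary untreated tumors had 29.7, 51.1 and 51.2 CPM, primary STV tumors 24.1, 37.5 and 21.4 CPM, recurrent DMAG tumors 29.4, 14.4 and 26.9 CPM, and recurrent DMAG+STV tumors 28.1 and 12.8 CPM. The glands had 41.3 and 888 CPM. Gland 1 lay inside the range of the tumors, 9 of which were below it, while gland 2 lay above all 11.

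Slc34a2, the phosphate cotransporter, was at 40.8, 85.2 and 40.4 CPM in primary untreated tumors and 35.5, 97.7 and 46.7 CPM in primary STV tumors. Recurrent DMAG tumors had 46.7, 26.0 and 41.6 CPM and recurrent DMAG+STV tumors 72.4 and 158 CPM. Gland 1, with 72.2 CPM, had 4 tumors above it and 7 below. Gland 2 had 4479 CPM, which was 96.0 times the median tumor.

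Car2, the cytosolic carbonic anhydrase, had tumors on both sides of the glands, which stood at 73.6 and 86.0 CPM. Tumors had 130, 101 and 18.2 CPM in the primary untreated group, 112, 55.0 and 120 CPM in the primary STV group, 236, 97.9 and 141 CPM in the recurrent DMAG group and 137 and 94.1 CPM in the recurrent DMAG+STV group. Both glands had 9 tumors above them and 2 below. Primary untreated tumor 3 was the lowest and recurrent DMAG tumor 1 the highest.

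Car6, the secreted carbonic anhydrase, was higher in every tumor than in either gland. It was at 110, 132 and 669 CPM in primary untreated tumors, 129, 73.9 and 75.5 CPM in primary STV tumors, 30.8, 64.1 and 89.5 CPM in recurrent DMAG tumors and 93.6 and 135 CPM in recurrent DMAG+STV tumors. The glands had 24.7 and 8.71 CPM. Primary untreated tumor 3 stood apart at 669 CPM. Its salivary markers summed to 3.35 CPM, within the range of the other tumors, and the part of salivary tissue in the Car6 value was not tested. The same tumor was lowest for Car2 and highest for Slc12a2.

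Set against the background, 2 members (Slc12a2 and Car6) had all tumors above both glands, an arrangement found in 4.14% of 17135 genes, and 1 (Atp2b2) had all tumors below both, found in 7.37%. Since tumor and gland levels chose the genes, nothing is read from these counts.

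**Figure D1:**
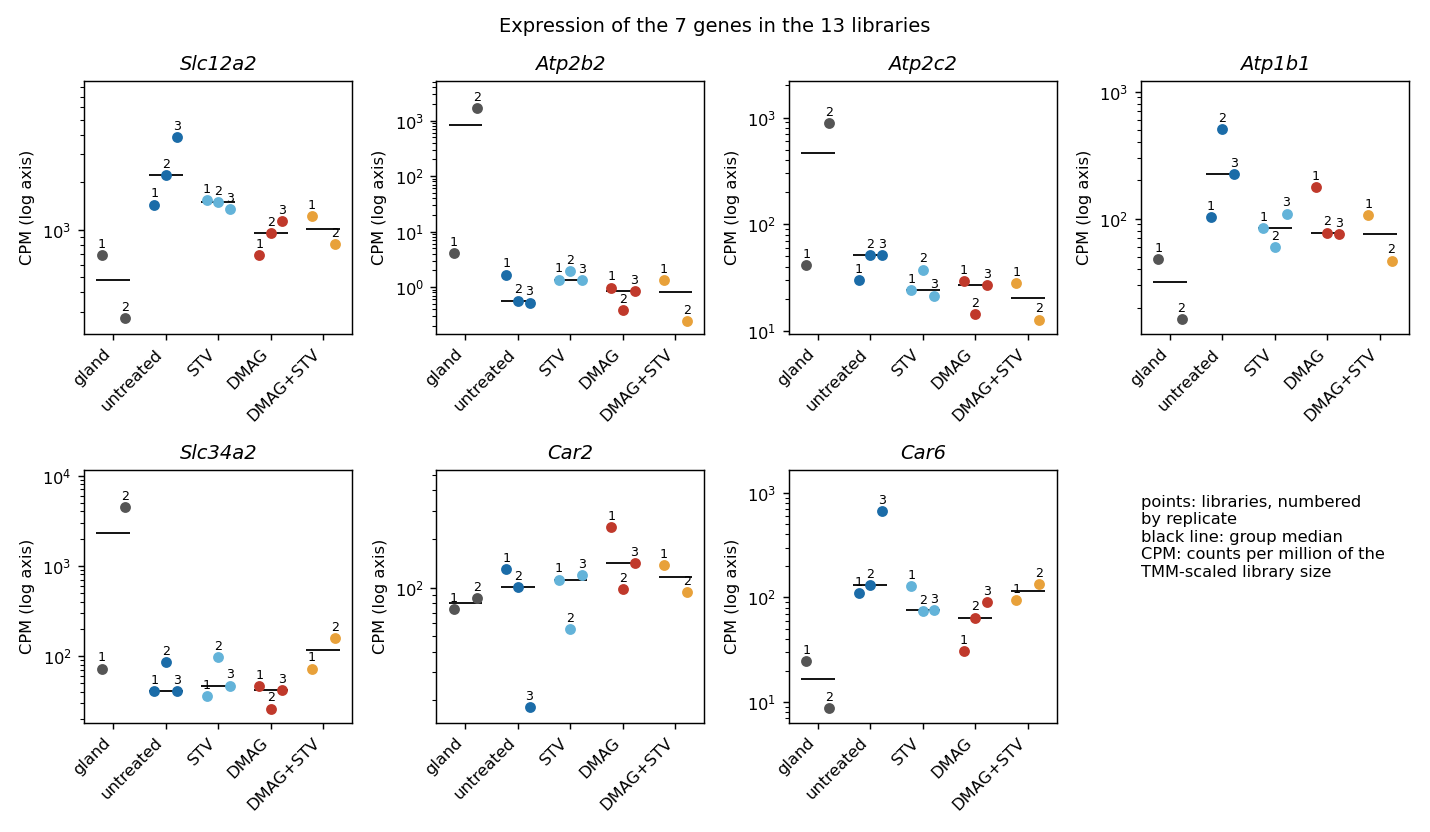
Expression of the 7 genes in each of the 13 libraries as CPM on a log axis, by group; points are libraries numbered by replicate and black lines are group medians. Atp2b2, Atp2c2 and Slc34a2 stand far higher in gland 2 (1662, 888 and 4479 CPM) than in any other library, and Slc12a2 lies higher in all 6 primary tumors than in the 5 recurrent tumors.

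Gland 2, the one rich in milk protein RNA, had more of the calcium pumps and the phosphate cotransporter than gland 1 and less of the chloride cotransporter, the sodium pump subunit and Car6. It exceeded gland 1 by 409-fold for Atp2b2, 62.1-fold for Slc34a2 and 21.5-fold for Atp2c2, and by 1.17-fold for Car2. It held 0.399 of the gland 1 level of Slc12a2, 0.352 for Car6 and 0.340 for Atp1b1. Scaled to library totals alone, which milk protein RNA dominates in gland 2, the ratios were 179, 27.2 and 9.42 for Atp2b2, Slc34a2 and Atp2c2, 0.511 for Car2 and 0.149 to 0.175 for the other 3 genes. With 1 library of each kind there is no replicate check on these ratios.

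Per kilobase of exon, the order of levels between genes changed from gland 2 to tumors. In gland 2, Slc34a2 led with 894 CPM per kilobase, ahead of Atp2c2 (276), Atp2b2 (132), Car2 (35.5), Slc12a2 (25.1), Atp1b1 (5.27) and Car6 (4.79). In gland 1 Slc12a2 led with 62.8 CPM per kilobase, and Car2 (30.4) followed. Atp1b1 (15.5), Slc34a2 (14.4), Car6 (13.6) and Atp2c2 (12.8) lay close together, and Atp2b2 was last at 0.322. The medians over 11 tumors were 124 CPM per kilobase for Slc12a2, 51.5 for Car6, 46.3 for Car2, 33.2 for Atp1b1, 9.31 for Slc34a2, 8.72 for Atp2c2 and 0.0771 for Atp2b2. Ranges over tumors overlapped between neighbors in this order except for Atp2b2, whose highest tumor, 0.155, was under the lowest of Atp2c2, 3.97. Exon lengths came from GENCODE models on GRCm38, which need not equal the models the authors counted on. In these models Atp2b2 lies on chromosome 6 (113743831 to 114042613), Atp2c2 on chromosome 8 (119700009 to 119757717), Atp1b1 on chromosome 1 (164437109 to 164458355), Slc34a2 on chromosome 5 (53038081 to 53071664), Car2 on chromosome 3 (14886273 to 14900770) and Car6 on chromosome 4 (150187015 to 150201332).

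**Figure D2:**
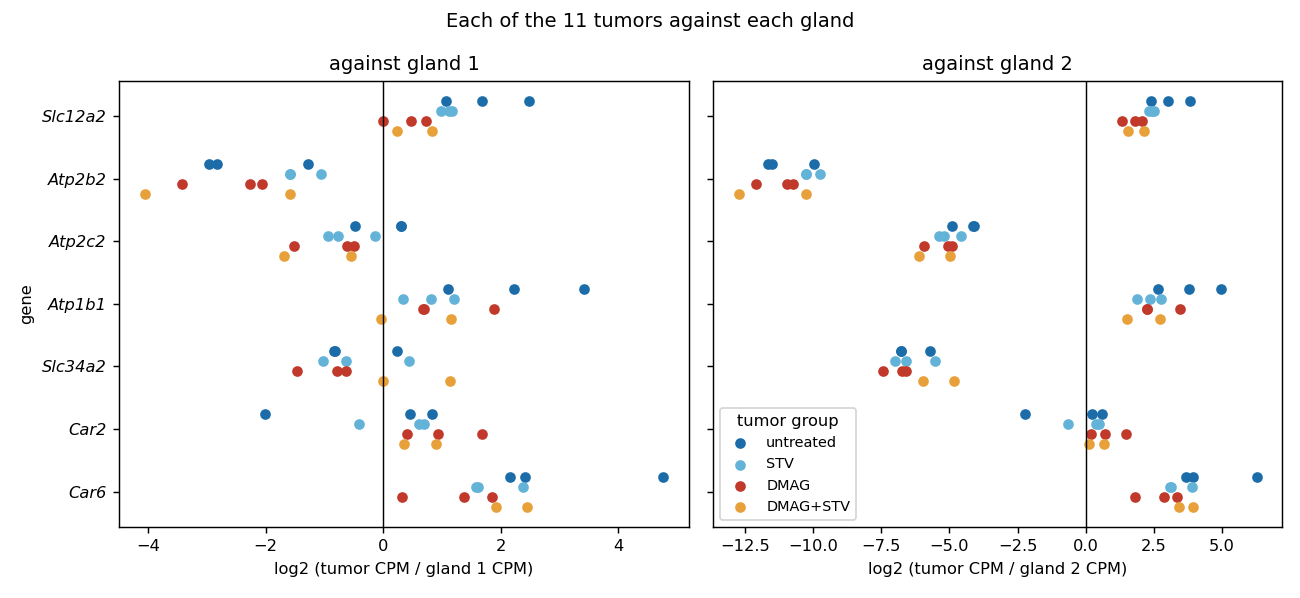
Log2 ratio of the CPM in each of the 11 tumors to the CPM in gland 1 (left) and gland 2 (right), by gene and tumor group; the vertical line at 0 marks equal levels. Atp2c2 and Slc34a2 scatter around or just under gland 1 but lie at -6.12 to -4.12 and -7.43 to -4.83 against gland 2.

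Comparisons among the 11 tumors asked whether STV, or regrowth under 17-DMAG, went with a change in these genes. The edgeR quasi-likelihood test, with Benjamini-Hochberg adjustment over 16870 genes, called 0 of the 7 members and 0 genes overall (0%) in each of the 6 comparisons. DESeq2 called 17 to 419 genes, which was 0.101% to 2.48% of those tested. It called 0 members in recurrent DMAG+STV against primary STV tumors (1.96% of all genes), in DMAG+STV against DMAG (1.64%) and in the interaction (1.12%). The counts at an unadjusted p under 0.05 are given beside their share among all genes. Levels in these same tumors and in the glands entered the choice of the members, so none of the 6 comparisons is independent of it. The difference between the primary untreated group and the glands was among those values. The comparison averaged over water and the interaction both use that group. The 4 pairwise comparisons share groups and are only set side by side.

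Primary STV tumors were compared with primary untreated tumors (n = 3 against 3). The log2 difference was -1.73 (SE 0.60) for Atp1b1, -1.72 (SE 0.68) for Car6 and -0.79 (SE 0.34) for Slc12a2, and these 3 members had an unadjusted p under 0.05, against 3.76% of all genes. Their edgeR adjusted p was 1.00. Groups overlapped for all 7 members, while 10.8% of genes had groups that did not overlap. The Car6 and Slc12a2 values leaned on primary untreated tumor 3, without which they were -0.40 and -0.34; Atp1b1 was -0.94 without primary untreated tumor 2. Limma voom gave Atp1b1 -1.48 and DESeq2 called 0 members, against 0.101% of all genes. The count of members at an unadjusted p under 0.05 stayed at 3 with DESeq2. It fell to 1, Atp1b1, with limma voom, with a replicate block and with only the compared groups.

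Recurrent DMAG tumors were compared with primary untreated tumors (n = 3 against 3). Slc12a2 differed by -1.45 (SE 0.34, edgeR adjusted p = 0.509), from 1441 to 3847 CPM in primary tumors to 687 to 1136 CPM in recurrent ones. Car6 differed by -2.32 (SE 0.69, adjusted p = 0.509), Atp1b1 by -1.35 (SE 0.59, adjusted p = 0.510) and Atp2c2 by -0.91 (SE 0.39, adjusted p = 0.509). These 4 members had an unadjusted p under 0.05, against 9.69% of all genes. Groups did not overlap for Slc12a2, Car6 and Atp2c2, against 15.1% of all genes, and Atp1b1 overlapped between groups. DESeq2 called Slc12a2 (log2 difference -1.43, adjusted p = 0.0245) and no other member, against 0.362% of all genes. Without primary untreated tumor 3, Slc12a2 differed by -0.999 and Car6 by -0.99, and without primary untreated tumor 2, Atp1b1 differed by -0.56.

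Under STV, recurrent DMAG+STV tumors were compared with primary STV tumors (n = 2 against 3). No member had an unadjusted p under 0.05 (0 of 7, against 10.1% of all genes). Differences ran from -0.96 (SE 0.78) for Atp2b2 to 0.94 (SE 0.52) for Slc34a2, with Slc12a2 at -0.53 (SE 0.38). Without recurrent DMAG+STV tumor 2 these were -0.21, 0.27 and -0.27, and without recurrent DMAG+STV tumor 1 they were -2.66, 1.39 and -0.86. Slc34a2 was 1.48 without primary STV tumor 2. Slc12a2 and Atp2b2 were lower in both recurrent tumors than in all 3 primary ones, and 35.3% of all genes had groups that did not overlap. For Atp2b2 the gap was small, 1.350 CPM in the lowest primary against 1.349 CPM in the highest recurrent tumor.

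In recurrent tumors, DMAG+STV was compared with DMAG (n = 2 against 3). Slc34a2 was at 72.4 and 158 CPM against 26.0 to 46.7 CPM, a log2 difference of 1.60 (SE 0.52, edgeR adjusted p = 0.474). It alone had an unadjusted p under 0.05 (1 of 7 members, against 7.84% of all genes). Recurrent DMAG+STV tumor 2 carried much of the difference, which was 0.92 without it. Among tumors, that tumor also had the highest sums of skeletal muscle (1408 CPM), basal and myoepithelial (272 CPM) and adipocyte markers (115 CPM). Its luminal sum, 1359 CPM, was the lowest, and its salivary sum, 37.0 CPM, was below only that of primary untreated tumor 2. The part of tissue makeup in the Slc34a2 value was not tested. Groups did not overlap for Slc34a2 and Car6, both higher with STV, against 21.5% of all genes. The Car6 difference was 0.90 (SE 0.73), and 0.57 without recurrent DMAG tumor 1.

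**Figure D3:**
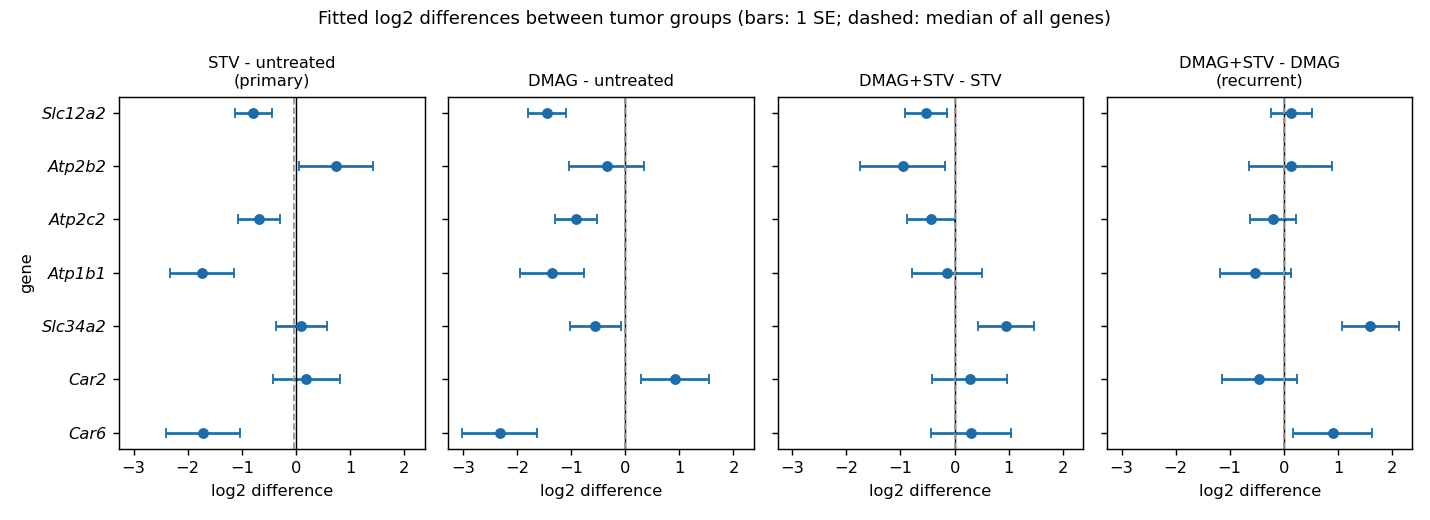
Fitted log2 differences of the 7 genes in the 4 pairwise comparisons of tumor groups, with bars of 1 SE; the solid line marks 0 and the dashed line the median of all genes tested. Slc12a2 lies at -1.45 and -0.53 in the comparisons of recurrent with primary tumors, and Slc34a2 at 1.60 in that of DMAG+STV with DMAG.

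Averaged over plain and STV water, recurrent tumors (n = 5) were compared with primary tumors (n = 6). The primary side holds the untreated group, whose values entered the choice of the members, so the results here are not independent of that choice. Slc12a2 differed by -0.99 (SE 0.26, edgeR adjusted p = 0.287), with 687 to 1217 CPM in recurrent and 1353 to 3847 CPM in primary tumors. It was the only one of the 7 members whose groups did not overlap, an arrangement found in 1.34% of all genes. DESeq2 called it and no other member (log2 difference -0.98, adjusted p = 0.0161), against 2.48% of all genes, while limma voom gave an adjusted p of 0.355. Leaving out each tumor in turn gave differences of -1.14 to -0.76 and adjusted p-values of 0.199 to 0.623 in edgeR. The lowest Slc12a2 value belonged to recurrent DMAG tumor 1, which had the highest luminal marker sum of the tumors, 2793 CPM, and also the highest leukocyte (198 CPM) and endothelial (261 CPM) sums. The part of tissue makeup in this difference was not tested. Atp2c2, at -0.68 (SE 0.29), also had an unadjusted p under 0.05, so that 2 of 7 members did, against 13.6% of all genes. It was -0.43 without recurrent DMAG+STV tumor 2. The median of the 7 members was -0.68 and that of all genes tested 0.0018.

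The interaction of recurrence and STV asks whether the difference between recurrent and primary tumors depended on the water. It uses the primary untreated group, so it is not independent of the choice of the members either. Car6 had the largest value of the 7 members, 2.62 (SE 0.99, edgeR adjusted p = 0.591), and was the only one at an unadjusted p under 0.05, against 7.84% of all genes. Without primary untreated tumor 3 it was 1.30. Slc34a2 followed at 1.50 (SE 0.70), which was 0.80 without recurrent DMAG+STV tumor 2.

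The other genes of ion transport came from 8 lists of 106 genes, of which 92 were tested between tumors and glands. The lists were drawn up with earlier results of these data known. Calls, p-values and counts for these genes, here and further on, are therefore not independent of that choice. Compared with the 2 glands, edgeR called 6 of them higher in the mean of the 4 tumor groups, against 1.6% of all 17135 genes, and 14 lower, against 8.81%. The median difference over the 92 genes was -0.29, and -0.022 over all genes. The glands decided many of these calls. Without gland 2, 7 genes were called, against 3.01% of all genes, 6 of them among the 20 and all 6 lower in tumors, Car4, Fxyd2, Slc4a1, Slc4a8 and Aqp3 among them. The 6 genes called higher kept their direction without gland 2 but missed the threshold (edgeR adjusted p = 0.0585 to 0.284). Without gland 1, 31 genes were called, against 24.2% of all genes, 16 of them among the 20. DESeq2 called 32 (18.9% of all genes), primary untreated tumors alone against the glands gave 6 (2.11%), and a replicate block gave 6 (2.17%).

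Among the carbonic anhydrases, 1 of 11 tested genes was called higher and 3 lower, against 1.6% and 8.81% of all genes. Car9, a membrane enzyme induced by low oxygen, had 13.9 to 42.9 CPM in tumors and 7.21 and 2.57 CPM in the glands, a log2 difference of 2.40 (SE 0.56, edgeR adjusted p = 0.0247). Car4, an enzyme anchored on the cell surface, had 0 to 0.408 CPM in tumors and 2.22 and 2.78 CPM in the glands. Its fitted difference was -5.30 (SE 0.84), with tumor counts near the floor. Car5b, a mitochondrial form, was at 27.1 to 101 CPM in tumors and 83.1 and 328 CPM in the glands, a difference of -1.92 that was -0.53 without gland 2. Car7 was the third lower gene. Car12, with the highest mean CPM of the list, had 183 to 654 CPM in tumors and 155 and 26.3 CPM in the glands (log2 difference 1.94, adjusted p = 0.0807). Car3, abundant in fat and muscle, had 0.127 to 143 CPM in tumors and 597 and 477 CPM in the glands (log2 difference -3.61, adjusted p = 0.0756), beside adipocyte sums that were also higher in the glands; their part was not tested.

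Among chloride transport genes, 2 kinase genes and 1 channel gene were higher in tumors. Stk39 encodes SPAK, the kinase that phosphorylates and activates NKCC1. It had 318 to 626 CPM in tumors and 223 and 167 CPM in the glands, a log2 difference of 1.39 (SE 0.23, edgeR adjusted p = 0.00621). Wnk4, which encodes a kinase acting upstream of SPAK, had 40.2 to 128 CPM in tumors and 24.4 and 11.3 CPM in the glands, a difference of 1.78 (SE 0.46, adjusted p = 0.0371). They were 2 of 13 tested genes of cotransport and WNK kinases, against 1.6% of all genes. Of the 13, 0 were called lower, against 8.81%. Wnk1, the WNK gene with the highest mean CPM, differed by -0.52 (adjusted p = 0.0722). Ano1, a calcium-activated chloride channel, was at 1081 to 2565 CPM in tumors and 1090 and 901 CPM in the glands, a difference of 0.92 (SE 0.23, adjusted p = 0.0325). Clca2, of the chloride channel list, was called lower at -3.09, but had 3.53 to 26.0 CPM in tumors against 7.11 and 120 CPM in the glands, and its direction turned to 0.15 without gland 2.

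Of 13 other Na,K-ATPase and FXYD genes, 2 were called lower and 0 higher, against 8.81% and 1.6% of all genes. Fxyd2, the gamma subunit of the pump, had 0.0422 to 0.556 CPM in tumors and 2.59 and 5.21 CPM in the glands.

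Of 17 other calcium genes, 2 were called lower, against 8.81% of all genes. Pthlh, which encodes the parathyroid hormone-related protein released by the lactating gland, had 0 to 1.32 CPM in tumors and 0.889 and 62.3 CPM in the glands. Its fitted difference of -7.98 (SE 1.27) was -2.75 without gland 2. Atp2b4, a plasma membrane calcium pump of the same family as Atp2b2, was at 6.07 to 27.9 CPM in tumors and 31.5 and 32.5 CPM in the glands, a difference of -1.49 (SE 0.41, edgeR adjusted p = 0.0440) that missed the threshold without either gland (adjusted p = 0.0846 and adjusted p = 0.288). Atp2b1, the member of that family found in most cells, had 170 to 275 CPM in tumors and 229 and 106 CPM in the glands (log2 difference 0.37, adjusted p = 0.368), and Atp2a2, the pump of the endoplasmic reticulum, had 263 to 377 CPM and 270 and 304 CPM (0.17, adjusted p = 0.428).

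Of 16 bicarbonate and proton exchangers, 1 was called higher (Slc4a3), against 1.6% of all genes. Lower calls numbered 5 (Slc4a1, Slc4a7, Slc4a8, Slc26a6 and Slc9a2), against 8.81%. Slc9a2, a sodium-proton exchanger, had 0.0633 to 0.653 CPM in tumors and 0.950 and 23.5 CPM in the glands, and its fitted difference of -5.52 was -1.76 without gland 2. Slc4a7, a sodium-bicarbonate cotransporter, had 22.2 to 43.7 CPM in tumors and 42.6 and 128 CPM in the glands, a difference of -1.50 that was -0.42 without gland 2. Slc4a8, of the same family, moved the other way with the glands: its 12.7 CPM in gland 1 and 3.18 CPM in gland 2 compared with 0.392 to 1.87 CPM in tumors (log2 difference -3.00, SE 0.50, edgeR adjusted p = 0.00605). Without gland 1 it was -1.64 and missed the threshold (edgeR adjusted p = 0.0837), as did Slc4a1 (-2.09, adjusted p = 0.128). The 3 erythroid markers with counts summed to 59.4 and 34.2 CPM in the glands and 18.9 to 34.1 CPM in tumors. The part of erythroid cells in the Slc4a1 value was not tested. Slc4a2, a chloride-bicarbonate exchanger found in most cells, differed by 0.40 (adjusted p = 0.121).

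Of 3 tested phosphate transport genes, Slc20a2 was called higher (log2 difference 0.64), against 1.6% of all genes. Slc20a1, which like Slc20a2 takes up phosphate with sodium, and Xpr1, a phosphate exporter, differed by -0.53 (adjusted p = 0.239) and 0.42 (adjusted p = 0.0625). Of 10 sodium channel and water genes, Aqp3 was called lower, against 8.81% of all genes. Aqp3, a water and glycerol channel, had 4.20 and 41.5 CPM in the glands and 0 to 0.0926 CPM in tumors, so that all tumors stood at or within a few counts of the floor. The gene of the list with the highest mean CPM was Aqp5, a water channel of secretory glands, with 523 to 2416 CPM in tumors and 760 and 136 CPM in the glands (log2 difference 1.75, edgeR adjusted p = 0.111). Sgk1, a kinase that keeps sodium channels at the cell surface, differed by -0.26 (adjusted p = 0.601).

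**Figure D4:**
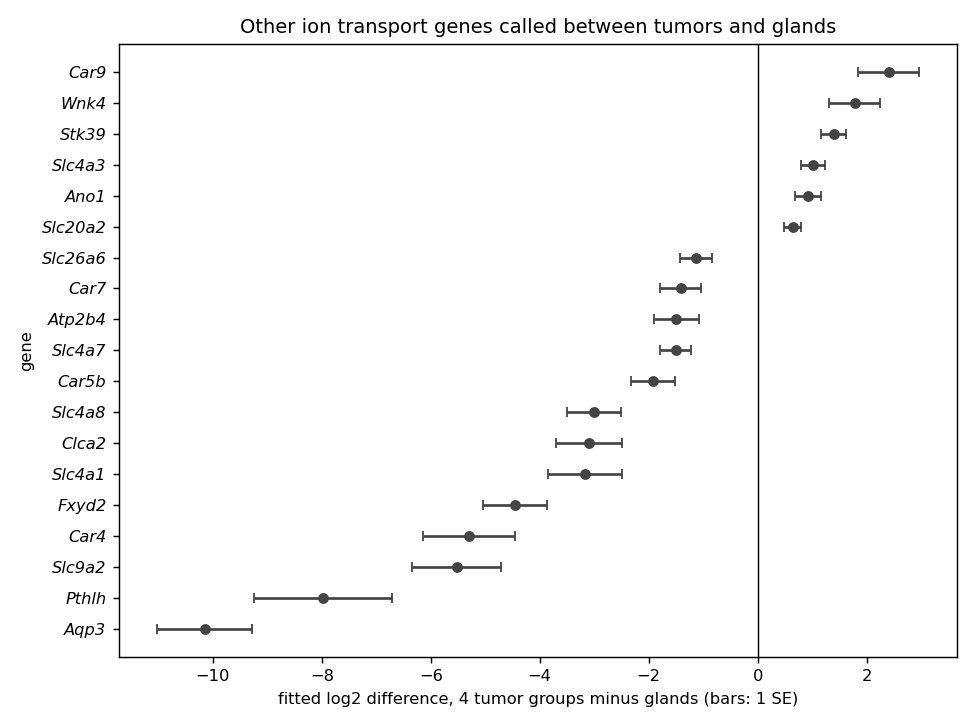
Fitted log2 difference between the mean of the 4 tumor groups and the glands for 19 of the 20 called genes of the other ion transport lists, with bars of 1 SE. The 6 higher genes reach 2.40 (Car9) and the 13 lower genes drawn reach -10.15 (Aqp3), a fitted value that depends on counts near 0 and is no bound.

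Between tumor groups, edgeR called 0 of the 88 list genes tested in each of the 6 comparisons, with 9 to 19 at an unadjusted p under 0.05. Beside the share of all genes, these were 9 for STV against untreated (3.76%) and 12 for DMAG against untreated (9.69%). They were 19 for DMAG+STV against STV (10.1%) and 11 for DMAG+STV against DMAG (7.84%). The average over water had 14 (13.6%) and the interaction 11 (7.84%). Among the genes with the smallest p in a comparison, Atp2a3, a calcium pump of the endoplasmic reticulum, was at 262 CPM in recurrent DMAG+STV tumor 2 and at 2.38 to 7.42 CPM in the other 10 tumors. Clca3a2, of the chloride channel list, has close paralogs that can share its reads. It had 1521 and 981 CPM in recurrent DMAG+STV tumors, 1521, 141 and 44.3 CPM in recurrent DMAG tumors and 23.0 to 335 CPM in primary tumors, an averaged difference of 3.77 (SE 0.92, edgeR adjusted p = 0.287). The calcium-binding S100g (0.358 to 1.36 CPM in tumors) and Slc20a1 (133 to 210 CPM) were also among them, and neither passed the adjusted threshold.

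The genes most like each member across the 11 tumors were found by Pearson's r of log2 CPM among 13174 genes; they were chosen as the highest, so no p is given, and the tumors share groups. Among the genes nearest to Atp1b1 were Gmeb2, with r = 0.96 (Spearman's rho 0.86, and r = 0.87 without the 2 tumors farthest from the median of Atp1b1), and Mgat4a (0.95). Slc12a2 was nearest to Sirt3 (0.96), Map3k13 (0.96) and Hinfp (0.95), and Atp2c2 to Tns3 (0.95), Ssfa2 (0.93) and Ndufb9 (0.92). Slc34a2 was nearest to Trp53cor1 (0.95), Ccng1 (0.93) and St3gal1 (0.92), and Car2 to Lynx1 (0.98), R3hdm4 (0.93) and 9130023H24Rik (0.92). Atp2b2, with few counts, was nearest to Ipo8 (0.91), Prkar2b (0.86) and Pigc (0.85). Of these, Prkar2b fell to 0.65 without the 2 tumors farthest from the median of Atp2b2. Among the genes nearest to Car6 were Lars (0.92) and Mtmr6 (0.90), which fell to 0.66 and 0.55 without the 2 tumors farthest from the median of Car6.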

How the data were processed

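Total RNA of 11 tumors and 2 mammary glands was depleted of ribosomal RNA and sequenced. The deposited values are raw counts of reads per gene, not normalized; the authors aligned reads to mm10/GRCm38 with STAR and counted them with featureCounts, on the UCSC annotation. The submitters' processing notes also name Subread 1.6.2 and bcl2fastq 2.20. Strand setting, multi-mapping and replicate pooling were not given in the sources used here, so reads of overlapping or antisense genes cannot be told apart. Totals ran from 39921388 to 56887708 counts; intervals and floors would cover counting error only. All 13 columns matched a labelled sample. Replicates in a group differed beyond counting noise, so none was merged.

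Counts were tested in R 4.3.3 with edgeR 4.0.16 (filterByExpr, TMM, robust quasi-likelihood test, two-sided, Benjamini-Hochberg over all genes, called under 0.05). The 6 tumor comparisons used 11 tumors and 16870 genes; tumors against glands used 13 libraries and 17135 genes, without a test of the 7 members. Standard errors were taken from the F statistic of the edgeR test. The scripts were tested on simulated counts. Alternatives were DESeq2 1.42.0, which the study used, limma 3.58.1 voom, other scalings and filters, fewer samples, a replicate block and leaving out each library.

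Named genes were all 7 members and, in each list, the 2 with the highest mean CPM; every called list gene up to the 12 with the smallest p; and the 2 with the smallest p in each tumor comparison. Some genes that these rules pick are not reported here. Other called list genes were named after their values were seen. Similar genes were the 3 with the highest r per member among genes whose log2 CPM averaged 1 or more. The 7 members and the lists were chosen with earlier results of these data known. Marker sums are of CPM; 4 hemoglobin genes were listed at 0 in all libraries. Promoters are RefSeq's.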

Additional observations from a re-analysis of the deposited data

How the results depend on the processing

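The 2 glands, 1 of them dominated by milk protein RNA, decide much of what tumors against glands shows. The 0 members called in each tumor comparison stayed at 0 under every alternative run, except that DESeq2 called 1 in recurrent DMAG against primary untreated tumors (0.362% of all genes) and 1 in recurrent against primary tumors (2.48%), Slc12a2 both times. The 20 list genes called between tumors and glands became 32 with DESeq2 (18.9% of all genes), 6 with primary untreated tumors alone and 7 to 31 when each library was left out (7 without gland 2, 31 without gland 1). Samples with the same replicate number did not deviate together (mean r -0.046 over 15 pairs, 0.022 over 30 other pairs), so the numbers were not taken as pairs. Values were centered within each group, which ties these 2 means to each other, so the second is no separate check. With a replicate block the 20 became 6 and 0 members were called.

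Small member differences turned. Atp2b2 in DMAG+STV against DMAG went from 0.13 to -0.20 with limma voom and -0.22 with the replicate block. Leaving out each library in turn reversed these values at least once, with ranges as follows.
For STV against untreated primary tumors this was Slc34a2 from -0.44 to 0.57 and Car2 from -0.29 to 0.67. For recurrent DMAG against primary untreated tumors this was Atp2b2 from -0.63 to 0.40. For DMAG+STV against DMAG this was Slc12a2 from -0.20 to 0.39, Atp2b2 from -1.58 to 0.88 and Atp2c2 from -0.89 to 0.25. For recurrent DMAG+STV against primary STV tumors this was Car2 from -0.032 to 0.51, Atp1b1 from -0.86 to 0.32 and Atp2c2 from -1.12 to 0.019. For the interaction this was Atp2c2 from -0.23 to 0.91 and Atp2b2 from -2.33 to 0.12. For recurrent against primary tumors this was Slc34a2 from -0.13 to 0.47. For tumors against glands this was Clca2 from -3.98 to 0.15. The causes were not tested. Scaled to library totals alone, the median tumor against gland 2 moved to a log2 ratio of 3.40 for Slc12a2, 3.76 for Atp1b1, 1.53 for Car2, -3.91 for Atp2c2, -5.49 for Slc34a2 and -9.64 for Atp2b2.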
